A study of Mus musculus with 50 samples.

Results

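The genes described here are enzymes that place or remove methyl groups or remove acetyl groups on histone lysines, as far as their symbols name them: lysine demethylases (Kdm), lysine methyltransferases (Kmt, Ezh1 and Ezh2), zinc-dependent histone deacetylases (Hdac) and sirtuins (Sirt1 to Sirt7). They were chosen by symbol alone, and 48 of the 53700 genes in the count files matched. These were 19 demethylases, among them the pseudogene Kdm4dl, 10 methyltransferases, 11 deacetylases, 7 sirtuins and Kdm6bos, a non-coding RNA on the opposite strand of Kdm6b. A filter of at least 1 CPM (counts scaled to library size) in more than 2 mice was passed by 45 of the 48, Kdm6bos included, and by 16696 of all genes. Hdac7, Kdm4d and Kdm4dl did not pass, with a mean under 1 CPM in every group.

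The RNA came from hippocampal microglia of 50 male C57BL/6J mice, sorted as CD45int CD11b+ cells, with 1 library per mouse. Early-life stress (ELS) was limited bedding and nesting material in the first postnatal days, and control (CTR) litters had standard material. Stress was given to whole litters, while the main tests take each mouse as a replicate. At P9, directly after the stress, 12 CTR and 13 ELS mice were taken. The number before the point in the labels, taken as the nest, gave 5 CTR and 4 ELS nests. Each P200 group came from 5 nests. At P200, mice received an intraperitoneal injection of PBS (7 CTR and 6 ELS) or of 1 mg/kg LPS (7 CTR and 5 ELS), lipopolysaccharide from bacterial outer membranes. They were killed a few hours later, so the changes after LPS described here are early ones. All groups were wild-type mice of this strain. Only the adults were injected, and only their tissue was cleared of myelin over Percoll. Age, cohort, injection and the Percoll step therefore cannot be told apart.

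Methyl groups on histone lysines mark chromatin as active or silent depending on the residue, while acetyl groups generally go with open, transcribed chromatin. The KMT2 enzymes write a methyl mark found at active promoters and enhancers, and EZH1 and EZH2 are the alternative catalytic subunits of PRC2 (polycomb repressive complex 2), whose mark silences genes. Demethylases reverse these marks, deacetylases act mostly inside corepressor complexes, and sirtuins are deacylases that consume NAD. Microglia divide in the young brain, are long-lived in the adult brain and answer LPS with a broad inflammatory programme.

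Total counts per mouse were 5152838 to 42231258. Mice are named by their labels. P9-ELS mice P9_19.3_ELS, with 12482 detected genes, and P9_19.2_ELS, with 15731, and CTR-PBS mouse P200_1.1_CTR_PBS, with 12854, had few detected genes and stood apart from their groups for several of the enzymes. Each count below was therefore also taken without these 3 libraries. The 8 microglia markers summed to a median of 51100 CPM in P9-CTR and 80100 CPM in CTR-PBS mice. The 12 genes of dividing cells summed to medians of 1690 and 1560 CPM in P9-CTR and P9-ELS mice, and to 68.4 to 84.9 CPM in the P200 groups. Medians of the 6 border macrophage markers were 714 and 733 CPM at P9 and 4.02 to 6.08 CPM at P200, and those of the 8 neuron markers were 150 and 98.9 CPM at P9 and 6.67 to 10.3 CPM at P200. The 7 markers of monocytes and neutrophils summed to at most 11 CPM in any mouse, with Ly6g and Retnlg at 0 in every group.

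Per kilobase of exon, the most abundant enzyme transcripts in P9-CTR mice were Sirt2, a largely cytoplasmic deacetylase, at a mean of 27 RPKM, Hdac1 at 20.4 RPKM, Hdac3 at 18.8 RPKM and Sirt7, a nucleolar sirtuin, at 12.7 RPKM. The same 4 genes led in CTR-PBS mice, at 16.7, 15, 9.04 and 14.7 RPKM. After LPS, Kdm6b headed the order with 33.9 RPKM in CTR and 31 RPKM in ELS mice, from 1.27 and 1.81 RPKM after PBS. Ezh2 had 2.43 RPKM in P9-CTR mice and 0.235 RPKM in CTR-PBS mice, where it was the lowest of the 45 tested genes. These lengths are those of all annotated exons, which makes the order between genes approximate. Exons of 29 of the 48 genes overlap an exon on the other strand, and the strand setting of the counting is not given in the sources used here.

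Between P9 and P200 the enzymes changed in both directions, with Ezh2 showing the largest decrease and Hdac11 the largest increase in either condition. In CTR mice, 6 of the 45 tested genes were higher at P200 (adjusted p under 0.05 by edgeR's quasi-likelihood test, here named called), against 17.4% of all tested genes, and 9 were lower, against 26.6%. In ELS mice, 13 were higher, against 17%, and 6 were lower, against 25%. These shares are also the background for the counts by family and by list of partner or marker genes below. Past a 2-fold change, CTR mice had 2 higher and 4 lower enzymes (background 7.98% and 18.5%) and ELS mice 5 higher and 2 lower (background 8.68% and 17.5%). The median log2 fold change over the enzymes was -0.08 in CTR and 0.13 in ELS mice, next to -0.09 and -0.01 over all tested genes. Without the 3 libraries with few genes, 8 enzymes were higher and 12 lower in CTR and 13 higher and 8 lower in ELS mice. That fit also called more of all 16696 tested genes, with 3498 higher and 4841 lower in CTR and 3467 and 4579 in ELS mice. With all mice these numbers were 2911, 4445, 2863 and 4182.

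**Figure D1:**
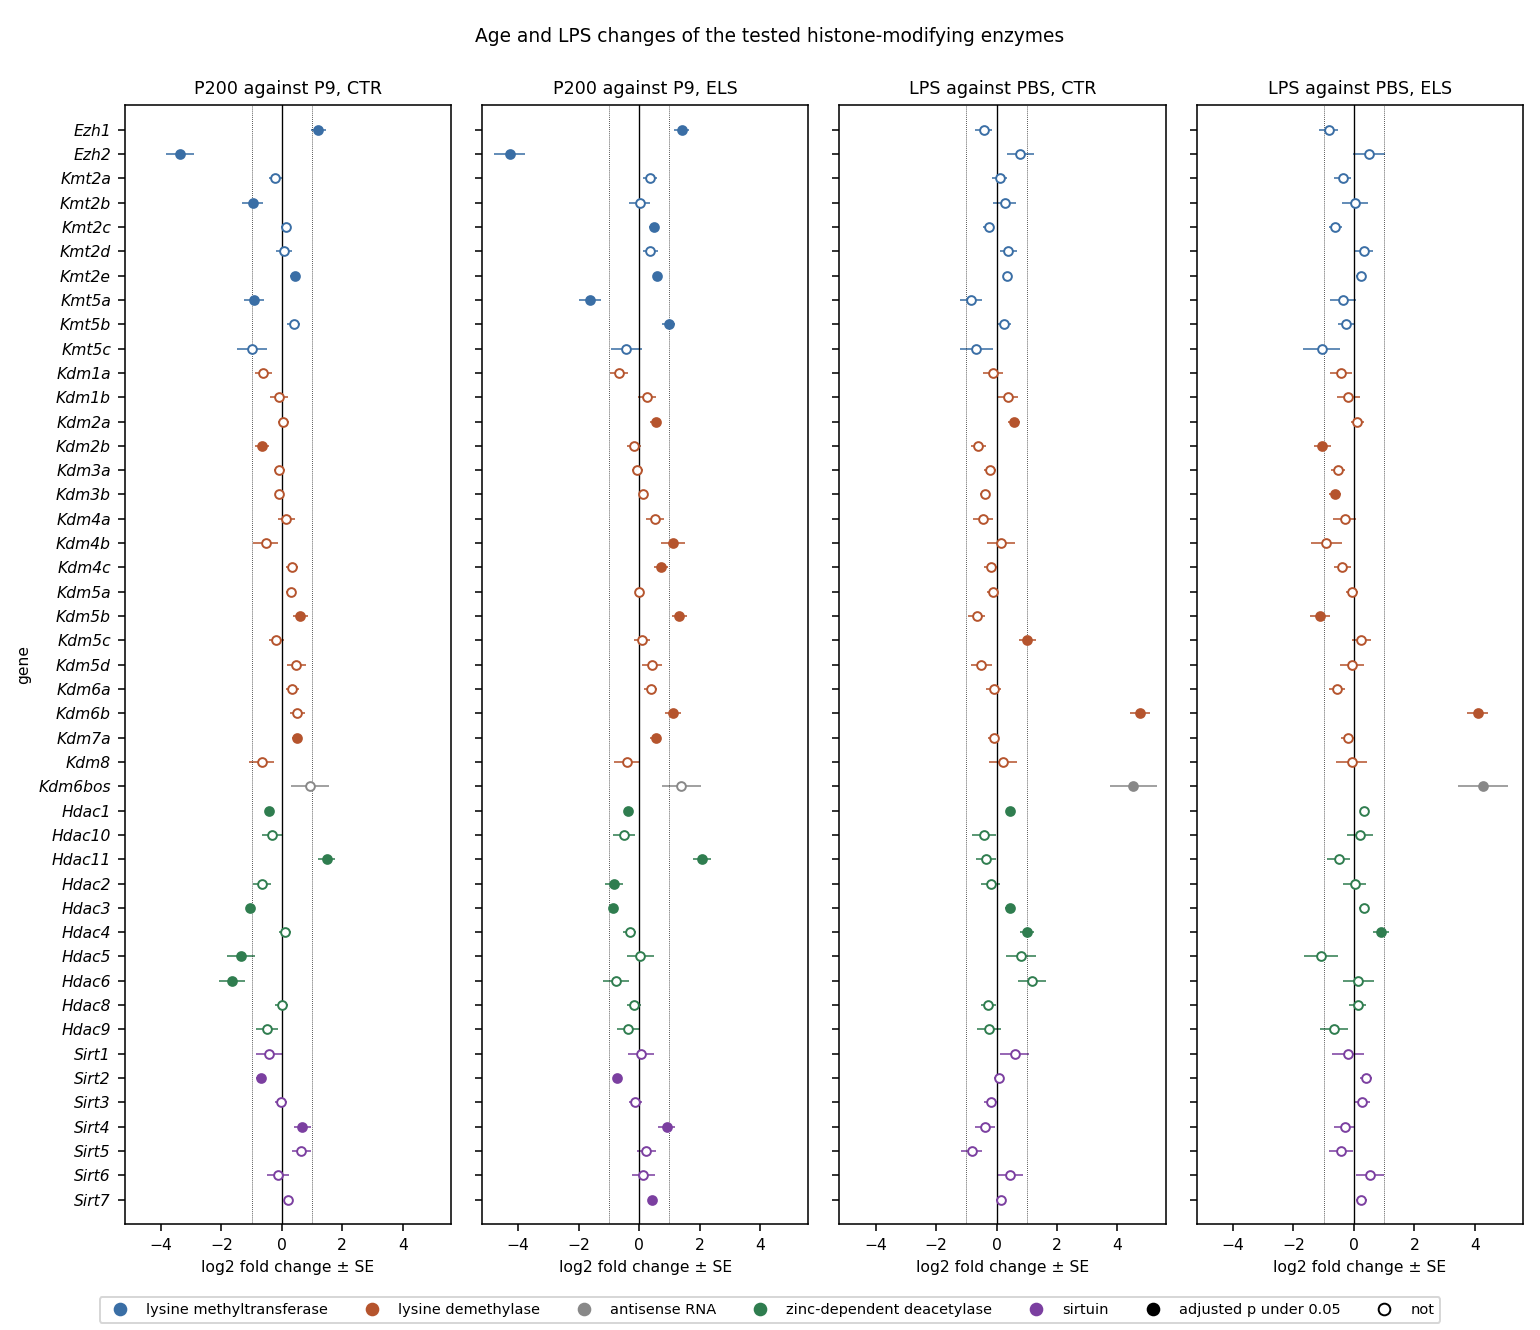
Log2 fold change (horizontal axis, with its standard error) of the 45 tested genes in 4 comparisons, coloured by family, with filled points for an adjusted p under 0.05 and dotted lines at a log2 fold change of 1 and -1. Kdm6b and Kdm6bos lie far to the right in both LPS panels, and Ezh2 far to the left in both age panels.

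The catalytic subunits of PRC2 moved in opposite directions with age. Ezh2 had 13.6, 17 and 23.2 CPM (lowest, median and highest) in P9-CTR mice and 0, 1.57 and 3.26 CPM in CTR-PBS mice. In P9-ELS mice it had 8.6, 17.8 and 87.3 CPM, and in ELS-PBS mice 0.463, 1.1 and 1.72 CPM. No P200 mouse reached the lowest P9 mouse of its condition, and the 87.3 CPM came from mouse P9_19.2_ELS, one of the libraries with few genes. Ezh2 fell by 3.37 ± 0.46 (SE) on the log2 scale in CTR (10.4-fold, adjusted p = 2.87e-08) and by 4.29 ± 0.51 in ELS mice (19.5-fold, adjusted p = 1.32e-09). Without the 3 libraries the decreases were 8.9-fold and 15-fold.

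Ezh1, the paralog that non-dividing cells are known to keep, had 17.5, 31.7 and 37.3 CPM in P9-CTR mice and 24, 74.1 and 85.7 CPM in CTR-PBS mice. In P9-ELS mice it had 2.63, 33.8 and 40.9 CPM, against 61.6, 82 and 98.7 CPM in ELS-PBS mice. Apart from CTR-PBS mouse P200_1.1_CTR_PBS, which held the 24 CPM, every PBS-injected adult lay above every P9 mouse of its condition. The rise was 1.21 ± 0.24 in CTR (2.32-fold, adjusted p = 3.63e-05) and 1.40 ± 0.24 in ELS mice (2.65-fold, adjusted p = 4.16e-06). Exons of Ezh1 and of Cntnap1, a neuronal gene, overlap on opposite strands.

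Of 9 other PRC2 genes tested, 1 was higher and 4 were lower at P200 in each condition. Rbbp7, a histone-binding subunit, had the smallest adjusted p and fell by 1.03 ± 0.15 in CTR and by 1.47 ± 0.16 in ELS mice, and Phf19, an accessory subunit, fell by 5.07 ± 0.99 and 5.02 ± 1.04. Eed, a core subunit, rose by 0.84 ± 0.21 in CTR mice. The genes of dividing cells fell together with Ezh2, 12 of 12 in each condition, and their part in the result was not tested. In bulk RNA of this kind, fewer cells of a type and less RNA per cell cannot be told apart.

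Sequences of the 250 bases before the transcription start are shown for Ezh2, Ezh1 and Hdac11, since these 3 genes changed past 2-fold with age in both conditions. They are the RefSeq sequences of build GRCm38.p6, in which 36 of the 48 genes had a promoter entry, and are written 5′ to 3′ on the strand of the gene. Capitals mark the CCAAT box (CCAAT, or ATTGG on the other strand) and the GC box (GGGCGG, or CCGCCC on the other strand).
Ezh2, chr6:47595031-47595280, minus strand: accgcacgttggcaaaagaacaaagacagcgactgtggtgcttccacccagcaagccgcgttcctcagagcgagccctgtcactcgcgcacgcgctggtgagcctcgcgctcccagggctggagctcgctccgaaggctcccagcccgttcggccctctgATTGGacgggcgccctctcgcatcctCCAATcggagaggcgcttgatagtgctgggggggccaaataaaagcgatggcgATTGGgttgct
Ezh1, chr11:101226464-101226713, minus strand: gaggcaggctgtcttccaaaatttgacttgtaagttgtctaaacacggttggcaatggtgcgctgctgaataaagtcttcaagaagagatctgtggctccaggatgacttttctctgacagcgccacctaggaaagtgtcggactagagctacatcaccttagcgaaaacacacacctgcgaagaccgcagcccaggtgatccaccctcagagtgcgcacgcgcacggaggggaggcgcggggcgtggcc
Hdac11, chr6:91156565-91156814, plus strand: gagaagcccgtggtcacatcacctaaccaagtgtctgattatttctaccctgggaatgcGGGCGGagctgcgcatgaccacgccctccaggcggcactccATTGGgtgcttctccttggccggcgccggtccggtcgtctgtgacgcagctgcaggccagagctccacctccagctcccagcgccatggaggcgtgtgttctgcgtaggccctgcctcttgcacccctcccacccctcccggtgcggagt
Ezh2 holds 3 CCAAT boxes, at 90 to 86, 64 to 60 and 11 to 7 bases before the start, Hdac11 holds 1 CCAAT box and 1 GC box, and Ezh1 holds neither. A CCAAT box is found on either strand in 33.8% of the 32851 promoter windows of this length and a GC box in 32.7%. Among the 36 genes with a window (some with several), 18 have a CCAAT box and 24 a GC box. The E2F element TTCCCGC (3.82% of all windows), the cell cycle homology region TTTGAA (16%), the AP-1 element TGANTCA (6.75%) and the NF-κB element (3.9%) were searched on both strands too, and none of these is in the 3 windows shown. The share of cytosine and guanine was 63.6% in the Ezh2, 55% in the Ezh1 and 65.2% in the Hdac11 window. The CCAAT and GC boxes were added to the search after the sequences were seen, and a match is a run of letters that says nothing of binding.

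Among the other methyltransferases, Kmt5a, which writes single methyl groups on histone H4 and is tied to the cell cycle, had 5.17, 8.45 and 22.3 CPM in P9-ELS mice and 0.652, 3.36 and 5.53 CPM in ELS-PBS mice. In CTR it had 5.89, 9.6 and 15 CPM at P9 and 1.64, 4.37 and 9.19 CPM after PBS at P200. The groups overlapped in both conditions. Kmt5a fell by 1.62 ± 0.36 in ELS (3.08-fold, adjusted p = 2.84e-04) and by 0.93 ± 0.33 in CTR mice (adjusted p = 0.0198). Without CTR-PBS mouse P200_15.1_CTR_PBS, the CTR value was -0.78 with an adjusted p of 0.0574.

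Kmt5b, which extends the methyl mark that Kmt5a begins, moved the other way in ELS mice, from 11.7, 24.9 and 36.5 CPM at P9 to 35, 48.1 and 55.5 CPM in ELS-PBS mice. Of the 6 adults, 5 were above every P9 mouse. The rise was 0.97 ± 0.21 (adjusted p = 1.82e-04), and it was 0.39 ± 0.21 and not called in CTR mice, where mouse P200_1.1_CTR_PBS held 7.79 CPM and the other CTR-PBS mice 35.2 to 50.1 CPM. Without the 3 libraries Kmt5b was called in CTR mice as well, at 0.57 ± 0.17 (adjusted p = 0.00481).

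Of the KMT2 enzymes, Kmt2b had 2.96, 8.08 and 14.7 CPM in P9-CTR mice and 2.39, 4.2 and 5.74 CPM in CTR-PBS mice, which overlap, and fell by 0.96 ± 0.35 (adjusted p = 0.0223, or 0.0505 without mouse P200_1.1_CTR_PBS). In ELS mice its change was 0.02. Kmt2e, which is catalytically inactive, was higher at P200 by 0.42 in CTR and 0.60 in ELS mice, and Kmt2c was called in ELS mice alone, at 0.49. Of the 9 tested partners of KMT2 enzymes, Hcfc1 was lower at P200 in CTR mice, by 1.05 ± 0.28, and none was called in ELS mice (2 had an unadjusted p under 0.05). Of 17 further H3 and H4 lysine methyltransferases, 2 were higher and 6 lower in CTR and 2 higher and 3 lower in ELS mice, with Smyd2 lower by 2.83 ± 0.46 and 2.98 ± 0.49.

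**Figure D2:**
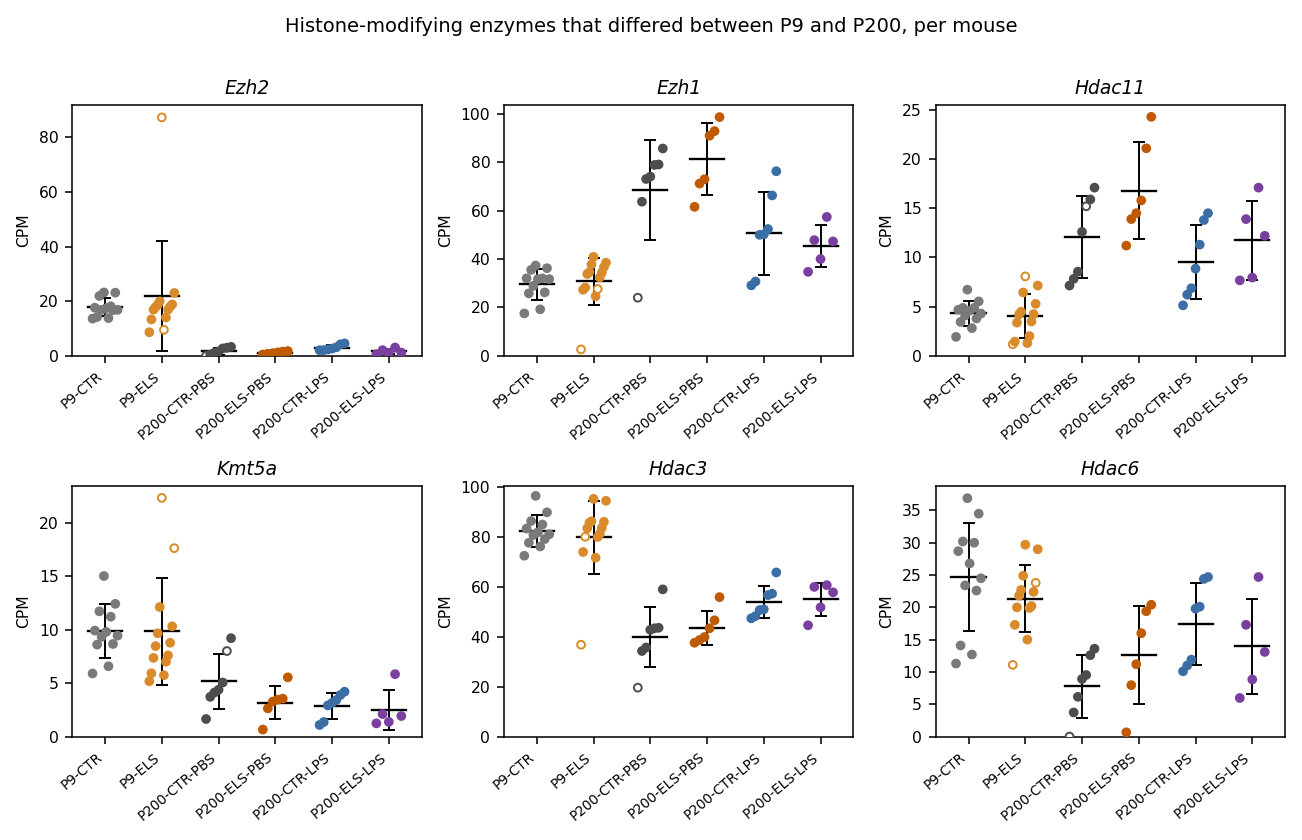
CPM per mouse (linear vertical axes from 0) of Ezh2, Ezh1, Hdac11, Kmt5a, Hdac3 and Hdac6 in the 6 groups, with the mean and SD as bars and the 3 libraries with few genes as open circles. Ezh2 and Hdac3 are high at P9 and Ezh1 and Hdac11 at P200, and the open circle at 87.3 CPM for Ezh2 is P9-ELS mouse P9_19.2_ELS.

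Of the 17 tested demethylases, 2 were higher and 1 lower at P200 in CTR mice, against 17.4% and 26.6% of all tested genes. In ELS mice 6 were higher and none lower, against 17% and 25% (7 had an unadjusted p under 0.05 there). Kdm5b, which removes the methyl mark of active promoters, had 9.66, 15 and 23.4 CPM in P9-CTR and 6.67, 26.3 and 32 CPM in CTR-PBS mice. In ELS mice it went from 3.41, 12.4 and 27.6 CPM to 18, 37 and 42.5 CPM. Its groups overlapped in each condition, in CTR through mouse P200_1.1_CTR_PBS at 6.67 CPM and 2 further values. Kdm5b rose by 1.33 ± 0.25 in ELS (2.51-fold, adjusted p = 1.74e-05) and by 0.61 ± 0.24 in CTR mice (adjusted p = 0.037). The CTR call was lost without CTR-PBS mouse P200_5.1_CTR_PBS, P200_5.2_CTR_PBS, P200_15.1_CTR_PBS or P200_18.2_CTR_PBS, with adjusted p of 0.0626 to 0.0951, while without the 3 libraries it was 0.78 ± 0.20 (adjusted p = 0.00109).

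Kdm4b, a demethylase of a heterochromatin mark, was called in ELS mice, where it went from 1.37, 6.28 and 23.2 CPM at P9 to 5.03, 17 and 24.8 CPM in ELS-PBS mice. Of the 6 adults, 1 was above every P9 mouse. The rise was 1.11 ± 0.39 (2.15-fold, adjusted p = 0.0198) and missed the threshold without ELS-PBS mouse P200_2.1_ELS_PBS or P200_4.1_ELS_PBS (adjusted p of 0.054 to 0.0714). Kdm6b, which removes the methyl mark of PRC2, rose by 1.11 ± 0.26 in ELS mice (adjusted p = 3.88e-04), from 1.79, 6.29 and 9.16 CPM to 5.54, 13.3 and 16 CPM, and had a value of 0.51 in CTR mice, which became 0.63 with a call without the 3 libraries (adjusted p = 0.0178).

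Kdm7a rose in both conditions, by 0.50 ± 0.17 in CTR (adjusted p = 0.0138) and by 0.54 ± 0.18 in ELS mice (adjusted p = 0.0109, or 0.0662 without ELS-PBS mouse P200_11.1_ELS_PBS). Kdm2a, which binds unmethylated CpG islands, rose by 0.54 ± 0.18 and Kdm4c by 0.72 in ELS mice, and Kdm4c was called in CTR mice without the 3 libraries, at 0.51 (adjusted p = 0.0113). Kdm2b, the paralog of Kdm2a and a subunit of a variant polycomb complex, had 50.3, 66.8 and 80.9 CPM in P9-CTR and 11, 38.3 and 68.6 CPM in CTR-PBS mice, where 2 of the 7 adults lay within the P9 range. It fell by 0.66 ± 0.23 (adjusted p = 0.0146), and had a value of -0.16 in ELS mice. Of 7 other JmjC-domain demethylases, Jmjd6 alone was called, higher by 0.59 ± 0.17 in CTR and 0.45 ± 0.18 in ELS mice.

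Among the 10 tested deacetylases, Hdac11, the only member of its class, was the single gene that rose with age. It had 1.92, 4.44 and 6.72 CPM in P9-CTR and 7.14, 12.6 and 17 CPM in CTR-PBS mice. In P9-ELS mice it had 1.17, 4.21 and 8.07 CPM, and in ELS-PBS mice 11, 15 and 24.3 CPM. All adults were above all P9 mice of their condition. The rise was 1.48 ± 0.29 in CTR (2.79-fold, adjusted p = 3.41e-05) and 2.07 ± 0.29 in ELS mice (4.2-fold, adjusted p = 7.61e-08). Exons of Hdac11 share bases with 2 opposite-strand transcripts.

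Hdac3, the deacetylase of the NCoR corepressors, had 72.5, 81.5 and 96.5 CPM in P9-CTR and 19.6, 42.8 and 59 CPM in CTR-PBS mice. In ELS mice the values were 36.8, 83.5 and 95.3 CPM at P9, the lowest from mouse P9_19.2_ELS, and 37.6, 41.6 and 55.9 CPM at P200. The CTR groups did not overlap. Hdac3 fell by 1.05 ± 0.14 in CTR (2.08-fold, adjusted p = 1.43e-08) and by 0.87 ± 0.14 in ELS mice (adjusted p = 2.16e-06), and both decreases were under 2-fold without the 3 libraries, at 0.94 on the log2 scale in each condition.

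Hdac1, a catalytic subunit of the Sin3, NuRD and CoREST complexes, fell by 0.44 ± 0.11 in CTR and by 0.38 ± 0.11 in ELS mice, with CTR groups that did not overlap (85.8 to 102 against 36 to 84.5 CPM). Its paralog Hdac2 was called in ELS mice, at -0.83 ± 0.31 (adjusted p = 0.0256), from 3.58, 8.38 and 32.5 CPM to 3.98, 4.98 and 8.17 CPM. That call was lost without ELS-PBS mouse P200_2.1_ELS_PBS, P200_17.1_ELS_PBS or P200_17.2_ELS_PBS (adjusted p of 0.0597 to 0.07), and the value was -0.58 without the 3 libraries. In CTR mice Hdac2 had a value of -0.65 with no call, and of -0.70 with a call without the 3 libraries (adjusted p = 0.0134). In all, 4 enzymes had CTR groups that did not overlap between P9 and P200 (Ezh2, Hdac1, Hdac3 and Hdac11, against 17% of all tested genes) and 3 had such ELS groups (Ezh1, Ezh2 and Hdac11, against 11.6%).

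Hdac6, a cytoplasmic deacetylase of tubulin, had 11.3, 25.7 and 36.9 CPM in P9-CTR and 0, 8.91 and 13.6 CPM in CTR-PBS mice, where mouse P200_1.1_CTR_PBS had no count. In ELS mice it had 11, 21.8 and 29.7 CPM at P9 and 0.652, 13.6 and 20.4 CPM at P200. It fell by 1.66 ± 0.43 in CTR mice (3.17-fold, adjusted p = 0.00135), or 2.72-fold without the 3 libraries, and had a value of -0.76 in ELS mice that was called only without those libraries (-0.80, adjusted p = 0.0467). Hdac5, a class IIa enzyme that shuttles between nucleus and cytoplasm, fell by 1.34 ± 0.46 in CTR mice (2.53-fold, adjusted p = 0.0164), from 11.6, 25.6 and 41 CPM to 1.68, 12.2 and 17.5 CPM, and had a value of 0.04 in ELS mice. Exons of Hdac5 share 2826 bases with G6pc3, a gene on the opposite strand, and without the strand setting part of the Hdac5 counts may come from G6pc3. Of 19 corepressor genes, 1 was higher and 5 were lower in CTR and 4 were lower in ELS mice. Chd4, the helicase of NuRD, had log2 fold changes of -2.10 ± 0.17 and -1.81 ± 0.17, and Sin3b fell by 0.76 ± 0.13 and 1.11 ± 0.14. Among 10 histone acetyltransferases, Hat1 fell by 1.40 ± 0.18 and 1.43 ± 0.19, and 2 rose in ELS mice.

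Of the 7 sirtuins, Sirt2 fell and Sirt4 rose. Sirt2 had 121, 147 and 191 CPM in P9-CTR and 63.3, 89.2 and 126 CPM in CTR-PBS mice, and 64.5, 145 and 205 CPM in P9-ELS and 73.7, 87.3 and 102 CPM in ELS-PBS mice. Its groups overlapped in both conditions. The decreases were 0.70 ± 0.15 (adjusted p = 2.24e-04) and 0.72 ± 0.16 (adjusted p = 3.03e-04). Sirt4, a mitochondrial sirtuin, rose by 0.91 ± 0.28 in ELS mice (adjusted p = 0.00825, or 0.054 without ELS-PBS mouse P200_17.2_ELS_PBS) and by 0.68 ± 0.28 in CTR mice (adjusted p = 0.0434). The CTR call rested on few mice, since it was lost without CTR-PBS mouse P200_1.1_CTR_PBS, P200_5.1_CTR_PBS, P200_5.2_CTR_PBS or P200_18.1_CTR_PBS (adjusted p of 0.0565 to 0.219), and mouse P200_1.1_CTR_PBS alone had 16.7 CPM against 3.64 to 10 CPM in the others. Sirt7 rose by 0.43 in ELS mice, and Sirt1, Sirt3, Sirt5 and Sirt6 were not called in either condition. Of 10 genes that make or consume NAD, 3 fell in CTR mice, among them Parp1 by 1.14 ± 0.16, and in ELS mice 3 fell and Nampt, the rate-limiting enzyme of NAD salvage, rose by 0.51 ± 0.15.

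After LPS, Kdm6b rose more than any other enzyme. Kdm6bos passed the filter on low counts only through the LPS mice and is counted apart here. In CTR mice, 3 of the 17 tested demethylases and 3 of the 10 tested deacetylases were called higher, against 8.73% of all tested genes. With Kdm6bos these were 7 of the 45 genes. None of the 45 was called lower, against 6.2%. In ELS mice, 1 demethylase and 1 deacetylase were called higher (3 genes with Kdm6bos), against 7.4%, and 3 demethylases lower, against 4.94%. These shares are also the background for the LPS counts by family and partner list below. Past 2-fold and apart from Kdm6bos, 2 demethylases and 1 deacetylase were higher and 0 genes lower in CTR mice (background 6.02% and 3.6%). In ELS mice, 1 demethylase was higher and 2 were lower past 2-fold (background 4.69% and 3.17%). The medians were -0.10 in CTR and -0.19 in ELS mice, beside 0.00 and -0.04 over all tested genes. The count of 0 lower enzymes in CTR mice, also 0 with DESeq2, changed with the mice kept and, as given below, with the fit. It was 2 without mouse P200_1.1_CTR_PBS, 1 without CTR-LPS mouse P200_8.2_CTR_LPS, and 4 without the 3 libraries with few genes (Ezh1, Kdm2b, Kdm3b and Kdm5b). In ELS mice the counts without the 3 libraries were 5 higher and 6 lower. Of these libraries, 2 are P9-ELS mice that enter the shared estimate of the spread. Shares over all tested genes are not given for these LPS counts with mice left out. A change in these counts is therefore not shown to be particular to the enzymes. The counts of higher genes with mice left out include Kdm6bos. The PBS mice here are the same as in the comparisons with age. The 6 astrocyte markers summed to medians of 335 and 396 CPM after PBS and 576 and 533 CPM after LPS in CTR and ELS mice. Of the 6 markers, 1 was called higher in CTR and 2 in ELS mice, while 2 had negative values in each condition. Their part in these results was not tested.

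Kdm6b had 4.12, 8.9 and 12.5 CPM in CTR-PBS and 133, 213 and 425 CPM in CTR-LPS mice. In ELS-PBS mice it had 5.54, 13.3 and 16 CPM, and the 5 ELS-LPS mice had 116, 121, 233, 297 and 311 CPM. Every LPS mouse was above every PBS mouse by a wide margin. The rise was 4.74 ± 0.33 in CTR (26.8-fold, adjusted p = 1.22e-16) and 4.1 ± 0.35 in ELS mice (17-fold, adjusted p = 1.90e-13). Kdm6b lies on chromosome 11 (69289334 to 69304501, GRCm39, minus strand). The summed CPM of all demethylases, Kdm6b included, had a mean of 584 ± 88.8 (SD, n = 7) CPM in CTR-PBS and 794 ± 140 CPM in CTR-LPS mice. The related demethylase Kdm6a, which removes the same mark, was not called.

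Counts assigned to Kdm6bos rose with it, from 0, 0.397 and 0.888 CPM in CTR-PBS to 5.06, 6.8 and 15.7 CPM in CTR-LPS mice. In ELS-PBS mice it had 0, 0.448 and 0.987 CPM, and ELS-LPS mice had 4.39, 5, 7.6, 10.3 and 16.8 CPM. No PBS mouse came near an LPS mouse. Kdm6bos passed the filter on low values only through the LPS mice, since no other mouse reached 1 CPM, so its call after LPS is no independent result and its values are given as a description. Exons of Kdm6bos and Kdm6b share 286 bases, and Kdm6bos counts were a median of 4.46% of Kdm6b counts in CTR-PBS and 4.11% in CTR-LPS mice. Without the strand, reads of the pair cannot be told apart, so a rise of Kdm6bos as a separate RNA is not shown.

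**Figure D3:**
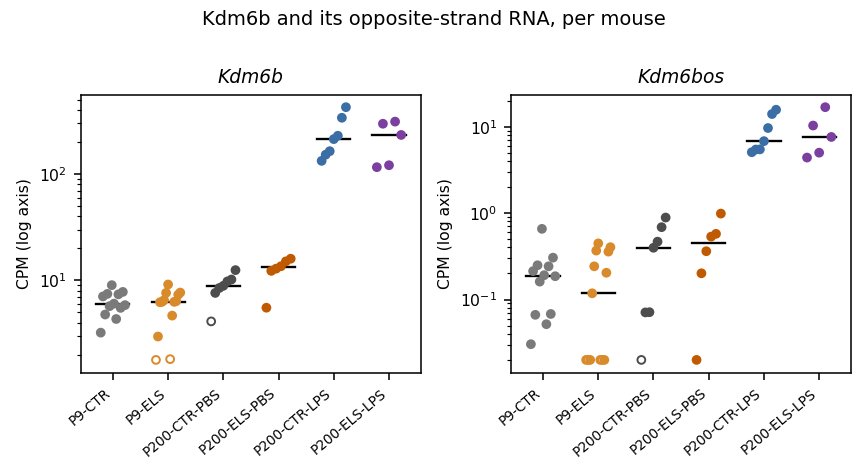
CPM per mouse of Kdm6b and Kdm6bos in the 6 groups on logarithmic axes, with the group median as a line, the 3 libraries with few genes as open circles and values of 0 drawn at 0.02 CPM. All 12 LPS mice lie above all other mice for both genes.

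Among deacetylases, Hdac4, a class IIa enzyme, rose in both conditions. It had 6.27, 8.5 and 11 CPM in CTR-PBS and 10.9, 17.4 and 25 CPM in CTR-LPS mice. In ELS-PBS mice it had 4.39, 7.93 and 10.8 CPM, against 10.6, 13.5, 15.6, 17 and 18.4 CPM in ELS-LPS mice. In each condition the lowest LPS mouse was just under the highest PBS mouse, and all others were above. The rise was 1.01 ± 0.24 in CTR (2.02-fold, adjusted p = 0.0014) and 0.90 ± 0.26 in ELS mice (adjusted p = 0.0159, or 0.0515 to 0.0541 without ELS-PBS mouse P200_11.1_ELS_PBS or ELS-LPS mouse P200_20.1_ELS_LPS).

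Hdac1 had 36, 73 and 84.5 CPM in CTR-PBS and 75.4, 94.1 and 114 CPM in CTR-LPS mice. It rose by 0.44 ± 0.12 (adjusted p = 0.00589, or 0.0687 with the nest as a replicate block). In ELS-LPS mice it had 84.2, 88, 95.3, 95.4 and 96.5 CPM, against 64.9, 71.2 and 84.7 CPM after PBS, a value of 0.34 ± 0.13 that was called only without the 3 libraries (adjusted p = 0.00953). Hdac3 rose by 0.44 ± 0.15 in CTR mice (adjusted p = 0.0389). That call was lost without CTR-PBS mouse P200_1.1_CTR_PBS, P200_18.1_CTR_PBS or P200_18.2_CTR_PBS or CTR-LPS mouse P200_1.3_CTR_LPS, P200_5.3_CTR_LPS or P200_18.3_CTR_LPS, with adjusted p of 0.0631 to 0.122. Chd4 was the corepressor gene with the smallest adjusted p in both conditions and rose by 0.95 ± 0.17 and 0.72 ± 0.19.

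Of the demethylases, Kdm5c and Kdm2a rose in CTR mice. Kdm5c, an X-linked relative of Kdm5b, had 17.9, 20.8 and 31.6 CPM in CTR-PBS and 18.7, 36.9 and 90.7 CPM in CTR-LPS mice. The 2 highest values came from mice P200_8.2_CTR_LPS and P200_8.3_CTR_LPS, whose labels share the number before the point, and 5 of the 7 LPS mice were above every PBS mouse. The rise was 1.02 ± 0.29 (2.03-fold, adjusted p = 0.0111), and 0.76 without mouse P200_8.2_CTR_LPS (adjusted p = 0.0721). With the nest as a replicate block the adjusted p was 0.137. ELS-LPS mice had 26.9, 30.1, 33.1, 45 and 46.5 CPM, with no call. Kdm2a rose by 0.59 ± 0.20 (adjusted p = 0.0327), from 14.5, 53.7 and 66.2 CPM to 60.2, 72.3 and 89.9 CPM. The call was lost without CTR-PBS mouse P200_1.1_CTR_PBS, P200_5.2_CTR_PBS or P200_15.1_CTR_PBS or CTR-LPS mouse P200_8.2_CTR_LPS or P200_18.3_CTR_LPS (adjusted p of 0.0561 to 0.0822).

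Kdm2b, Kdm5b and Kdm3b, a demethylase of a heterochromatin mark, fell after LPS in ELS mice. Kdm2b had 42.3, 56.2 and 78 CPM in ELS-PBS mice, and 19.4, 25.5, 28.9, 31.5 and 34.5 CPM in ELS-LPS mice, so that the groups lay apart. It fell by 1.04 ± 0.29 (2.05-fold, adjusted p = 0.01, or 0.056 with the nest as a replicate block). In CTR mice it had 11, 38.3 and 68.6 CPM after PBS and 14.2, 27.7 and 45.3 CPM after LPS, a value of -0.60 ± 0.25 (adjusted p = 0.102) that became -0.76 ± 0.21 without the 3 libraries (adjusted p = 0.00528).

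Kdm5b had 18, 37 and 42.5 CPM in ELS-PBS mice and 8.63, 11, 16, 20 and 22.1 CPM in ELS-LPS mice, where 2 LPS mice were above the lowest PBS mouse. It fell by 1.12 ± 0.32 (2.17-fold, adjusted p = 0.0141), or by 0.97 without ELS-LPS mouse P200_2.2_ELS_LPS (adjusted p = 0.0602). In CTR mice the value was -0.65 ± 0.28 (adjusted p = 0.114), and -0.81 ± 0.23 without the 3 libraries (adjusted p = 0.00686). Kdm3b had 37, 45.2 and 50.2 CPM in ELS-PBS mice and 24, 26.7, 30.2, 31.6 and 32.8 CPM in ELS-LPS mice, with no overlap. It fell by 0.62 ± 0.19 (adjusted p = 0.0255), a call lost without ELS-LPS mouse P200_4.2_ELS_LPS or P200_11.2_ELS_LPS or ELS-PBS mouse P200_17.2_ELS_PBS (adjusted p of 0.0559 to 0.0717). In CTR mice Kdm3b had a value of -0.39 ± 0.17 (adjusted p = 0.123), or -0.46 ± 0.13 without the 3 libraries (adjusted p = 0.00917).

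**Figure D4:**
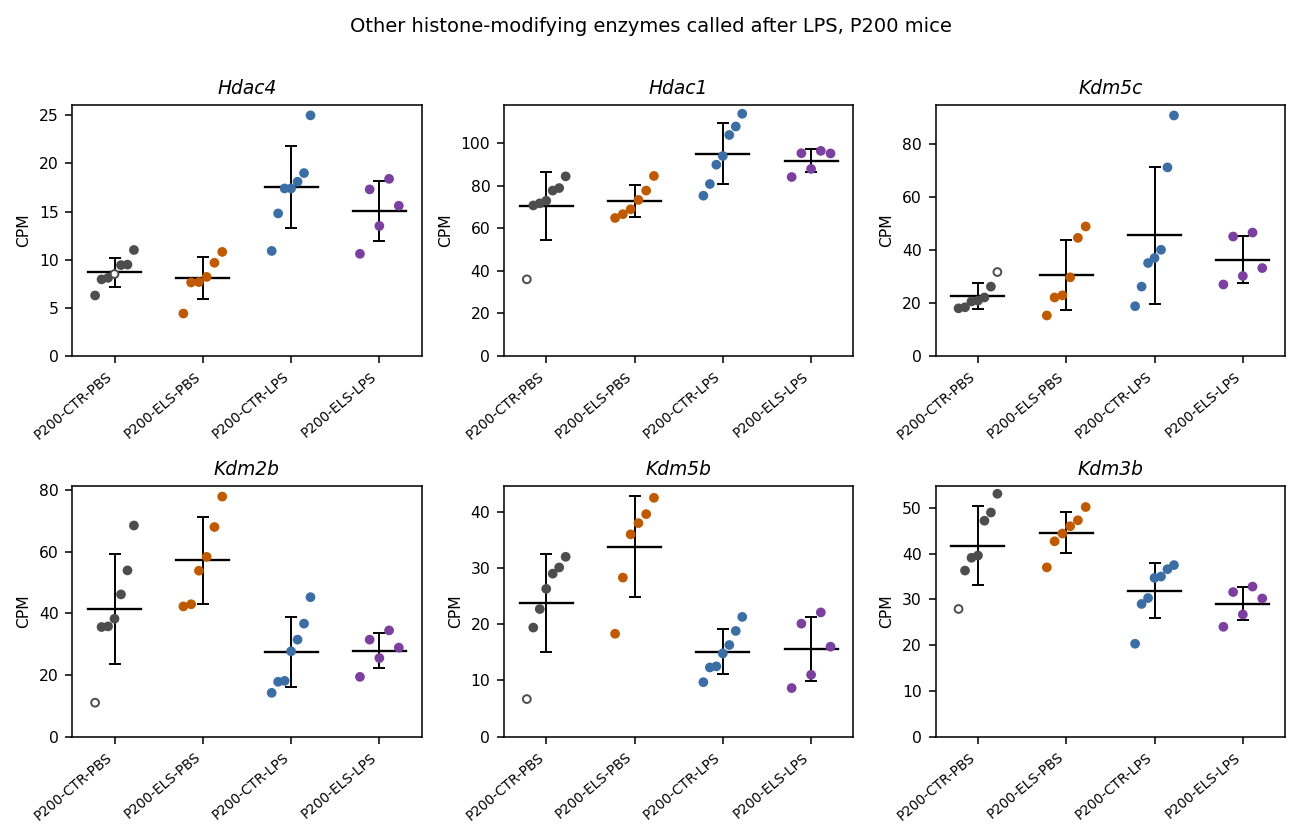
CPM per P200 mouse (linear vertical axes from 0) of Hdac4, Hdac1, Kdm5c, Kdm2b, Kdm5b and Kdm3b after PBS or LPS, with mean and SD as bars and CTR-PBS mouse P200_1.1_CTR_PBS as an open circle. Hdac4 lies higher after LPS in both conditions, Kdm2b, Kdm5b and Kdm3b lie lower, and mice P200_8.2_CTR_LPS and P200_8.3_CTR_LPS are the 2 high CTR-LPS points of Kdm5c.

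No methyltransferase or sirtuin was called after LPS in either condition by edgeR. Unadjusted p-values under 0.05 belonged to 2 methyltransferases in each condition and 1 sirtuin in each condition. The 2 methyltransferases in ELS mice were Kmt2c and Ezh1. Kmt2c had 39.7, 45.8 and 61.4 CPM after PBS and 28.1, 31.2, 31.2, 33.4 and 37 CPM after LPS, and Ezh1 had 61.6, 82 and 98.7 CPM after PBS and 34.7, 40, 47.3, 47.8 and 57.4 CPM after LPS. The groups lay apart for both genes. The value was -0.61 ± 0.22 for Kmt2c (adjusted p = 0.058) and -0.84 ± 0.31 for Ezh1 (adjusted p = 0.068). Both were called without the 3 libraries, with adjusted p of 0.0101 and 7.49e-04, and Ezh1 was then called in CTR mice too, at -0.58 (adjusted p = 0.0112). Kmt2e had a value of 0.36 ± 0.15 in CTR mice (adjusted p = 0.113) and was called with P200 mice fitted alone, and Sirt5, at -0.82 in CTR mice, with nests as a random effect. In ELS mice, 7 genes had PBS and LPS groups that did not overlap (Ezh1, Hdac9, Kdm2b, Kdm3b, Kdm6b, Kdm6bos and Kmt2c), against 10% of all tested genes. In CTR mice there were 2 (Kdm6b and Kdm6bos), against 7.49%. Kdm6bos is in both counts and, as said, passed the filter only through LPS mice.

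Partners of these enzymes changed after LPS as well. Eed, of PRC2, rose by 1.16 ± 0.24 in CTR and 1.27 ± 0.27 in ELS mice and was the only one of the 9 PRC2 partners called. Of the 7 other JmjC demethylases, Jmjd6 rose by 1.13 ± 0.20 and 1.45 ± 0.22, and Jmjd1c rose by 0.75 ± 0.17 in CTR mice. Of the 17 further methyltransferases, Setd1b fell by 0.82 ± 0.24 in CTR and 1.06 ± 0.28 in ELS mice, and Nsd1 and Ehmt1 fell in ELS mice. Of the 9 partners of KMT2 enzymes, Paxip1 was the only one called in CTR mice, lower by 1.12 ± 0.35, and of the 19 corepressor genes Tbl1xr1 fell by 0.67 ± 0.16 in CTR mice. No histone acetyltransferase of 10 was called (1 in CTR and 2 in ELS mice had an unadjusted p under 0.05). Of the NAD genes, Cd38 was called higher in both conditions from means of at most 0.241 CPM, and Nmnat2 lower in CTR mice at similarly low means.

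Early-life stress changed none of the 45 genes past the threshold at P9, at P200 after PBS or at P200 after LPS. The counts were 0 with edgeR's quasi-likelihood and likelihood-ratio tests and with DESeq2. Of all tested genes, 0% were called at P9, 0.168% after PBS and 0% after LPS. With no adjustment, p was under 0.05 for 3 of the 45 genes at P9, 2 after PBS and 0 after LPS, against 5.47%, 9.71% and 4.78% of all tested genes, so these counts are near or under the background.

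The 3 at P9 were the methyltransferases Kmt2a, Kmt2b and Kmt2c, all lower in ELS mice. Kmt2a had the smallest p, with 13.2, 26.4 and 38.2 CPM in P9-CTR and 5.56, 20.7 and 31.6 CPM in P9-ELS mice. The groups overlapped over most of their range. The value was -0.49 ± 0.19 (p = 0.0111 in edgeR's quasi-likelihood test, adjusted p = 0.875). Kmt2b had a value of -0.59 ± 0.28 and Kmt2c one of -0.32 ± 0.14 (adjusted p = 0.908 for both). Without the 3 libraries the values were -0.36 for Kmt2a, -0.51 for Kmt2b and -0.21 for Kmt2c. All 8 neuron, 6 astrocyte and 7 tested oligodendrocyte lineage markers had negative values in the same comparison, with none called, and their part in the result was not tested. Mouse P9_19.3_ELS, the shallowest library, held the lowest P9-ELS value of all 3 genes.

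After PBS, Kdm4b and Hdac5 had the smallest p. Kdm4b had 1.58, 6.55 and 9.53 CPM in CTR-PBS and 5.03, 17 and 24.8 CPM in ELS-PBS mice, and 4 of the 6 ELS-PBS mice were above every CTR-PBS mouse. The value was 1.53 ± 0.46 (2.89-fold, adjusted p = 0.142 in edgeR's quasi-likelihood test), and the adjusted p lay between 0.0584 and 0.301 over the 33 alternative fits. Hdac5, whose exons overlap G6pc3 on the opposite strand, had 1.68, 12.2 and 17.5 CPM in CTR-PBS and 11.6, 27.8 and 59.5 CPM in ELS-PBS mice. The 3 highest ELS-PBS mice (P200_2.1_ELS_PBS, P200_4.1_ELS_PBS and P200_11.1_ELS_PBS) had 59.5, 40.1 and 43.1 CPM and the other 3 had 11.6 to 15.5 CPM, within the CTR-PBS range. The value was 1.62 ± 0.52 (3.08-fold, adjusted p = 0.172). After LPS the smallest p belonged to Sirt3, a mitochondrial deacetylase, with 7.36, 10.9 and 13.8 CPM in CTR-LPS mice and 8.96, 9.72, 15.5, 16.3 and 24.9 CPM in ELS-LPS mice, which overlap. The value was 0.48 ± 0.24 (p = 0.0538, adjusted p = 1 in edgeR's quasi-likelihood test).

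**Figure D5:**
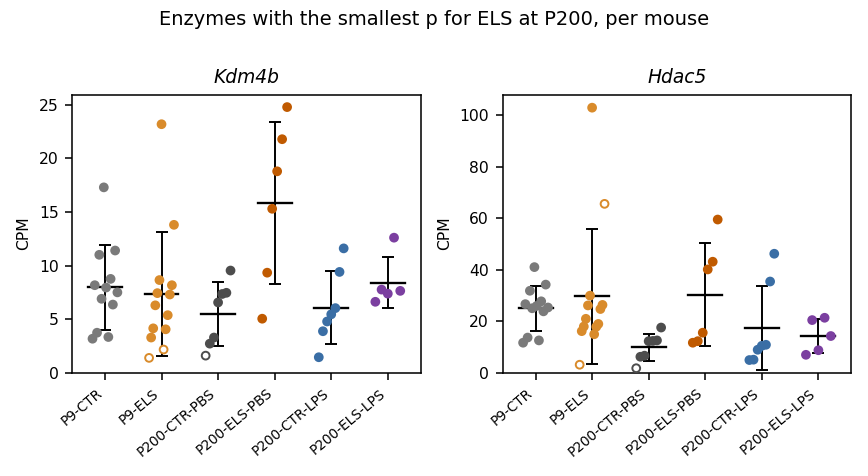
CPM per mouse (linear vertical axes from 0) of Kdm4b and Hdac5 in the 6 groups, with mean and SD as bars and the 3 libraries with few genes as open circles. ELS-PBS mice reach 24.8 CPM for Kdm4b and 59.5 CPM for Hdac5 but overlap with CTR-PBS mice for both genes.

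The changes with age and with LPS were also compared between CTR and ELS mice. No enzyme had an interaction of age and condition past the threshold, where 0.0299% of all tested genes had one, and none had an interaction of LPS and condition, where 0% had one. With no adjustment, p was under 0.05 for 4 and 1 of the 45 genes, against 10.3% and 5.87% of all tested genes, so no more often than in the background, and the counts past the threshold were also 0 with DESeq2. Kdm4b had the smallest p for age, with an interaction of 1.64 ± 0.57 (p = 0.00564, adjusted p = 0.319 in edgeR's quasi-likelihood test). Hdac5 had the smallest p for LPS, with -1.91 ± 0.76 (p = 0.0153, adjusted p = 0.657), its LPS values being 0.82 in CTR and -1.09 in ELS mice. For Kdm6b, whose rise was 26.8-fold in CTR and 17-fold in ELS mice, the interaction was not called. The enzymes called in 1 condition and not in the other, such as Kdm6b, Kmt5b and Kdm4b with age or Kdm2b and Kdm5b with LPS, are therefore not shown to differ between conditions.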

How the data were processed

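Hippocampal microglia were sequenced from poly-A RNA, 1 library per mouse. The authors trimmed reads with cutadapt 2.10, aligned them to GRCm39 with STAR and counted unique exonic reads per gene with HTSeq 0.11.0; the deposited values are raw counts. The annotation release and strand setting are not given in the sources used here. Total counts per mouse were 5152838 to 42231258.

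Counts of all 50 mice were fitted in 1 model of 6 group means with edgeR 4.0.16 in R 4.3.3 (TMM scaling, quasi-likelihood test, Benjamini-Hochberg adjustment over the 16696 genes that reached 1 CPM in over 2 mice), after a test on simulated data. Values after ± are standard errors of log2 fold changes unless marked SD. DESeq2 1.42.0, limma 3.58.1, other filters and scalings, nests and leaving out mice were alternatives. Members and gene lists were chosen with earlier results of these data known. The members described were those called past 2-fold in an age or LPS comparison, the 2 highest and 2 lowest fold changes among the other called members of each such comparison, and the member with the smallest p in each stress comparison and interaction; up to 3 genes per partner list were named, by adjusted p. Others named were chosen after their values were seen.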

Additional observations from a re-analysis of the deposited data

Results flagged for a closer look

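Only P200 groups were checked for outlying mice, since the P9 groups were larger than the limits used for the test. The check was Dixon's gap test on log2 CPM, where chance flags about 1 in 20. Of 100 such groups over the 25 genes described most closely, 14 held 1 mouse far from all others of its group. In 7 of these, the mouse was P200_1.1_CTR_PBS, a library with few detected genes, always as the lowest. It had 24 CPM of Ezh1 (63.7 to 85.7 CPM in the other CTR-PBS mice), 36 CPM of Hdac1 (70.8 to 84.5) and 0 CPM of Hdac6 (3.73 to 13.6). It also had 14.5 CPM of Kdm2a (38.4 to 66.2), 11 CPM of Kdm2b (35.6 to 68.6), 6.67 CPM of Kdm5b (19.4 to 32) and 7.79 CPM of Kmt5b (35.2 to 50.1).

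ELS-PBS mouse P200_20.2_ELS_PBS was the lowest of its group in 3 cases, with 0.652 CPM of Hdac6 (7.96 to 20.4 CPM in the others), 5.54 CPM of Kdm6b (12.3 to 16) and 0.652 CPM of Kmt5a (2.63 to 5.53). The remaining 4 cases were each a different mouse. Kdm3b was lowest in CTR-LPS mouse P200_18.3_CTR_LPS at 20.3 CPM (29 to 37.5 in the others), and Kdm7a in CTR-PBS mouse P200_5.2_CTR_PBS at 25.5 CPM (37.5 to 44.3). Sirt2 was lowest in CTR-LPS mouse P200_5.3_CTR_LPS at 59.3 CPM (90.9 to 124), and Kdm4b highest in ELS-LPS mouse P200_20.1_ELS_LPS at 12.6 CPM (6.61 to 7.75).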

How the results depend on the processing

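No called change of a described enzyme reversed its direction in any alternative fit. The count of genes lower after LPS in CTR mice, 0, became 1 with no filter on low counts, 1 with edgeR's own filter, 1 with nests as a random effect and 4 without the 3 libraries with few genes. In ELS mice, the 3 genes higher after LPS became 5 without those libraries, and the 3 lower became 5 with the likelihood-ratio test, 6 without those libraries and 5 with P200 mice fitted alone. Leaving out each of the 25 P200 mice in turn gave 0 to 2 lower and 5 to 8 higher genes after LPS in CTR mice, and 2 to 4 lower and 2 to 4 higher in ELS mice. It gave 4 to 8 higher and 8 to 10 lower genes with age in CTR, 11 to 14 higher and 5 to 7 lower in ELS mice, and 0 in every stress comparison and interaction. P9 mice were not left out singly. Counts of genes higher after LPS in this section include Kdm6bos. Shares over all tested genes are not given for the counts of this section, which are therefore no results about the enzymes as a set.

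The number before the point in the mouse labels was taken as the nest. Deviations from the group mean in mice of the same nest given PBS and LPS had correlations of -0.041 to 0.084 over 10 nests. With so few mice per nest, these values cannot tell whether litter mates were alike. With the nest as a replicate block, 6 genes were higher and 0 lower after LPS in CTR mice (Hdac1 at an adjusted p of 0.0687 and Kdm5c at 0.137 were not called, and Kmt2e was), and 3 higher and 4 lower in ELS mice (Kdm2b at 0.056 was not called, and Ezh1 and Kmt2c were), with 0 interactions. Standard errors were smaller without the 3 libraries with few genes, for example 0.15 in place of 0.24 for Ezh1 with age in CTR mice.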

Other observations

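Some mice, of the same or of different nest numbers, had high values of several enzymes together. CTR-LPS mice P200_8.2_CTR_LPS and P200_8.3_CTR_LPS held the 2 highest values of their group for Hdac5 (46.2 and 35.4 CPM), Kdm5c (90.7 and 71.1 CPM) and Kdm6b (425 and 338 CPM). Among ELS-PBS mice, P200_2.1_ELS_PBS, P200_4.1_ELS_PBS and P200_11.1_ELS_PBS had 59.5, 40.1 and 43.1 CPM of Hdac5 and 29.6, 48.8 and 44.5 CPM of Kdm5c, and the other 3 mice had at most 15.5 CPM of Hdac5. At P9, mouse P9_9.2_ELS, not among the libraries with few genes, had 103 CPM of Hdac5, 121 CPM of Kdm2b and 78.1 CPM of Kdm5c.

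The summed CPM of the zinc-dependent deacetylases was 300 ± 17 (SD, n = 12) in P9-CTR, 196 ± 33.1 (n = 7) in CTR-PBS and 249 ± 31.5 (n = 7) in CTR-LPS mice. For the methyltransferases these sums were 318 ± 47.7, 365 ± 51 and 394 ± 51 CPM, and for the sirtuins 244 ± 28.6, 202 ± 21.5 and 213 ± 19.4 CPM.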
